A study of Mus musculus with 24 samples.

Results

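The genes described here are the transcription factor NRF2 (gene Nfe2l2), its repressor KEAP1 (Keap1) and 8 genes that NRF2 is known to drive, among them those that make and recycle the antioxidant tripeptide glutathione. They were chosen by mouse gene symbol, which gave 10 genes of 56205 gene rows in the count table. The libraries were made from poly(A) RNA of whole livers of C57BL/6J mice. For 20 weeks, 12 animals had received a methionine-choline deficient (MCD) diet and 12 the matching control diet. An MCD diet is used in mice to bring about steatohepatitis with fibrosis. The formulation is high in fat according to the study's methods. Both diets held male and female animals according to the series description, but no library is labelled with a sex, a litter or a batch.

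In resting cells KEAP1 hands NRF2 to a ubiquitin ligase built on cullin 3, and NRF2 is degraded. Electrophiles and peroxides modify KEAP1, NRF2 then enters the nucleus, pairs with a small MAF protein and binds antioxidant response elements in its target genes. Much of this control acts on the protein, which RNA counts do not measure. Glutathione synthesis begins with cystine, which the transporter SLC7A11 brings into the cell, and glutamate-cysteine ligase, a catalytic subunit (Gclc) with a modifier subunit (Gclm), joins cysteine to glutamate. Glutathione reductase (Gsr), thioredoxin reductase (Txnrd1) and sulfiredoxin (Srxn1) return oxidised thiols to their reduced state, the quinone reductase NQO1 removes quinones, and heme oxygenase (Hmox1) breaks down heme. Hepatocytes can also make cysteine from methionine, an amino acid in which the MCD diet is deficient. SLC7A11 and several other genes of the amino acid response are also targets of ATF4, which is made when amino acids are short.

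RefSeq promoter windows (GRCm38.p6, 250 bases before to 50 bases after an annotated start) were at hand for 7 of the 10 genes, Txnrd1 having 3 windows. No window was at hand for Hmox1, Gclc and Gsr. They were searched on both strands for the core of the antioxidant response element, TGACNNNGC, for the AP-1 motif TGANTCA, which reads the same on both strands and can share bases with the former, and for an amino acid response motif, TGATGNAA. The first is in 12.39% of all 32851 windows, the second in 7.81% and the third in 3.97%. The stretches below lie before the start, run 5′ to 3′ along the strand of the gene, and are shown because they hold the matches in a pair of genes that were higher in MCD livers, Slc7a11 and Srxn1, and in 3 that were not called, Gclm, Txnrd1 and Nfe2l2. Capitals mark the match.
Slc7a11, chr3:50443624-50443719, minus strand, 2 matches to the amino acid response motif: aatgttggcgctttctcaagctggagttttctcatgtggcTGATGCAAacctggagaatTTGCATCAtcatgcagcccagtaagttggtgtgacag
Srxn1, chr2:152105382-152105513, plus strand, 2 matches to the AP-1 motif: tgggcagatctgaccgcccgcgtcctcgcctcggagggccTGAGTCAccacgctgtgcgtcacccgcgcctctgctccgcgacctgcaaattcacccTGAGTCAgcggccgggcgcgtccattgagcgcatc
Gclm, chr3:122245383-122245471, plus strand, 1 match to the antioxidant response element core: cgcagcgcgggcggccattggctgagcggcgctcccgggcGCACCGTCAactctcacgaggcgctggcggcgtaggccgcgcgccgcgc
Txnrd1, chr10:82859074-82859162, plus strand, 1 match to the same core in one of its windows: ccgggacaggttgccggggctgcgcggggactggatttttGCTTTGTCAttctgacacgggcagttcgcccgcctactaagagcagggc
Nfe2l2, chr2:75704855-75704913, minus strand, 1 match to the same core: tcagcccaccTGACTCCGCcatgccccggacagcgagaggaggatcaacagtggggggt

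The Srxn1 window held a further core match after the start. The core was thus found in a gene called higher and in Gclm, Txnrd1 and Nfe2l2, which were not called. None of the letters searched for were found in the windows of Nqo1 and Keap1, which says only that they are not in those 300 bases. A form of the core with G in place of its first C was not searched for. The second AP-1 match of Srxn1 and the bases just after it spell that form. A match is a string of letters and not a site shown to be bound.

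Total counts ran from 16793207 to 24915175 in control libraries and from 16388650 to 24577848 in MCD libraries. No 2 libraries of a diet were identical. The labels do not tie libraries to animals beyond the number per diet, so p-values measure the spread between these samples. TMM factors, which correct each library total for its composition, ran from 0.642 to 0.973 in control and from 1.07 to 1.26 in MCD and did not overlap, so every value below is relative to that scale. The lowest factor was that of control replicate 12. Of 8 hepatocyte markers 0 had a median of 0 counts in either diet, and 4 were lower in MCD livers (0 with total counts alone).

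The comparison asked how the NRF2 pathway differed between MCD and control livers. Of the 10 genes, Slc7a11, Hmox1, Nqo1 and Srxn1 were higher in MCD livers and Gclc was lower. To be called, a gene needed a false discovery rate (FDR) of 0.01 or less in edgeR's quasi-likelihood test and a log2 fold change beyond 0.5 in either direction. The other 5 genes, Nfe2l2, Keap1, Gclm, Txnrd1 and Gsr, were not called. Over all 14109 genes tested, 38.3% were called, 19.2% as higher and 19.1% as lower, so that 4 higher of 10 was above the share over all genes and 1 lower of 10 below it, with few genes to judge by. The groups of libraries did not overlap for 2 of the 10 genes, Slc7a11 and Hmox1, against 14.4% of all genes. The median log2 fold change of the 10 genes was -0.05, beside -0.10 over all genes tested. All 10 genes passed the filter on low counts, which asked for 0.51 CPM in 12 libraries of either diet, but Slc7a11, with 0 to 7 counts in control libraries, could pass it only through the MCD libraries, where it is high, and so had to differ. Without it, 3 of 9 genes were higher, with a median log2 fold change of -0.10. Of these 9 only Hmox1 did not overlap between the diets, which is not above the share over all genes. With total counts alone, where 84.3% of the calls over all genes were higher in place of 50.2%, the same 4 genes were higher and 0 were lower.

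**Figure D1:**
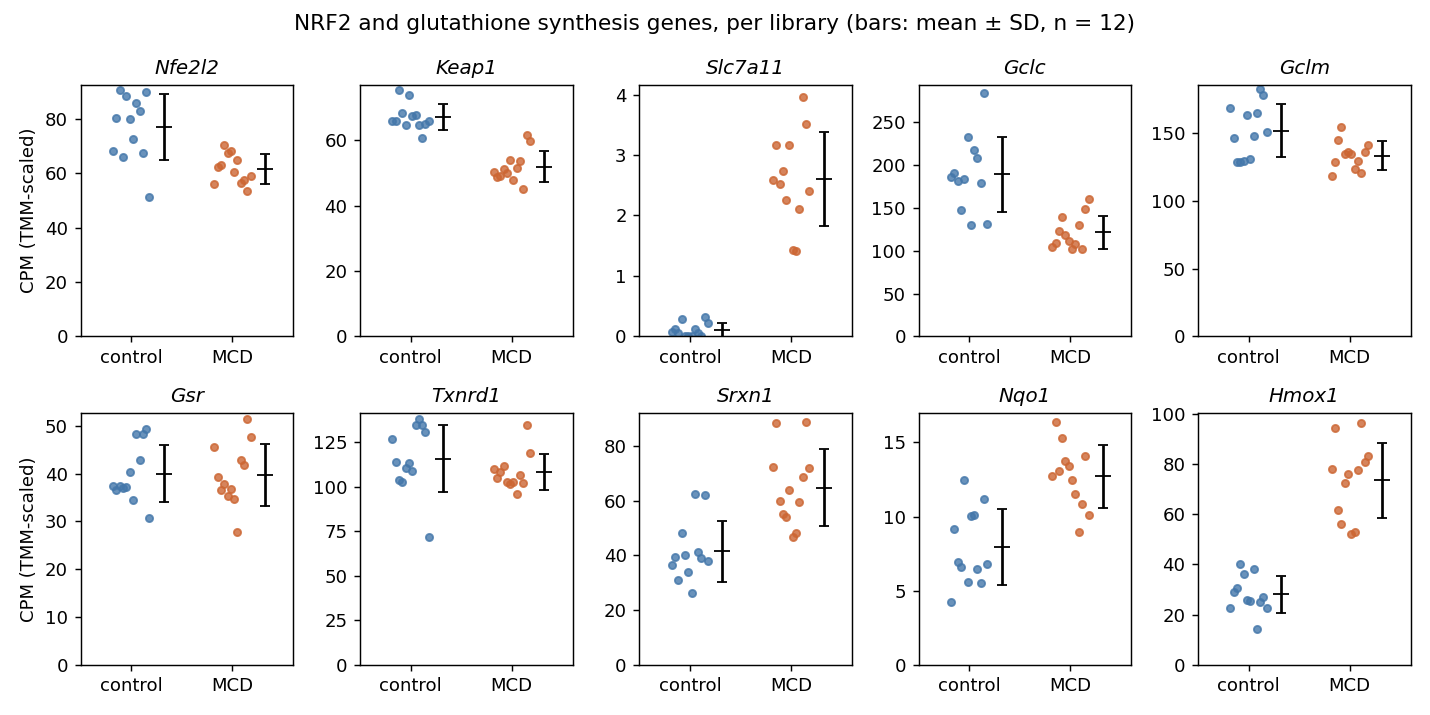
Normalised counts (CPM, counts scaled to library size with TMM, linear axes from 0) of the 10 genes in each of 12 control (blue) and 12 MCD (orange) libraries, with the mean and SD as bars. Slc7a11 and Hmox1 do not overlap between the diets, Gclc lies lower in MCD, and the groups of Gsr lie over each other.

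The sensor and the factor came first. Nfe2l2 (ENSMUSG00000015839; GRCm38 chromosome 2, 75675513 to 75704641, minus strand) ran from 51.2 to 90.5 CPM in control livers (median 80.1) and from 53.3 to 70.4 CPM in MCD livers (median 61.4). All 12 MCD libraries lay below the control median, although the lowest value of all was that of control replicate 12. Its log2 fold change was -0.32 (SE 0.08, 95% confidence interval -0.49 to -0.16, edgeR FDR 0.00119), within the fold limit, and it was 0.02 with total counts alone. Keap1 (ENSMUSG00000003308; chromosome 9, 21229730 to 21239361, minus strand) ran from 60.6 to 75.4 CPM in control (median 66.0) and from 45.2 to 61.5 CPM in MCD (median 50.8), and 11 of 12 MCD libraries lay below every control library. Its difference, -0.37 (SE 0.06, edgeR FDR 2.28e-06), was also within the fold limit, and was -0.01 with total counts alone. Of its exons 510 bases overlap a gene on the opposite strand, Gm16754, and whether counting used strand is not given in the sources used here. The ratio of Nfe2l2 to Keap1 within a library needs no scaling. Its log2 value was 0.18 ± 0.24 in control and 0.25 ± 0.20 in MCD (SD, n = 12 each), a difference of 0.07 that was within the spread of the libraries (two-sided permutation test with 100000 resamples, p = 0.474; adjusted over 2 ratios, 0.474).

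Slc7a11 (ENSMUSG00000027737; chromosome 3, 49892526 to 50443614, minus strand) showed the largest difference of the 10 genes. Control libraries held 0 to 7 of its reads (median 1), whereas MCD libraries held 33 to 102 (median 63.5). In control livers 4 libraries held 0 counts and 2 exceeded a floor of 3 counts. That floor lies at 0.134 to 0.227 CPM and covers counting error only. Every MCD library lay above every control library. Its abundance was 0.103 ± 0.113 CPM in control and 2.60 ± 0.772 CPM in MCD (SD, n = 12 each), and the fitted log2 fold change was 4.55 (SE 0.36, 95% confidence interval 3.82 to 5.29, edgeR FDR 5.17e-11). The size of this fold rests on 22 control reads in all. Set against the mean floor of the control libraries, the MCD mean was 14.8-fold higher. Even in MCD livers the transporter remained the least abundant of the 10 genes. Its promoter stretch above holds both matches to the amino acid response motif, and the promoter and the level are given side by side with no test between them.

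The subunits of glutamate-cysteine ligase went apart. Gclc (ENSMUSG00000032350; chromosome 9, 77754535 to 77794485, plus strand) ran from 130 to 285 CPM in control livers (median 185) and from 102 to 161 CPM in MCD livers (median 115). It was lower in MCD, 8 of 12 MCD libraries lying below every control library, and the log2 fold change came to -0.64 (SE 0.11, 95% confidence interval -0.87 to -0.41, edgeR FDR 2.21e-05). The call as lower was lost with upper-quartile factors (-0.50, just inside the fold limit, FDR 0.000595) and with total counts alone (-0.30, FDR 0.0567). Gclm (ENSMUSG00000028124; chromosome 3, 122245557 to 122270732, plus strand) ran from 129 to 183 CPM in control (median 150) and from 119 to 155 CPM in MCD (median 135), with overlapping groups. Its difference of -0.18 (SE 0.07, edgeR FDR 0.0253) was not called and turned to 0.18 with total counts alone. Gclm shares 244 exonic bases with Gm6061 on its own strand and 296 with Gm17494 on the other, which leaves its value uncertain by the reads of those genes. Within a library, the log2 ratio of Gclc to Gclm was 0.29 ± 0.27 in control and -0.15 ± 0.17 in MCD (SD, n = 12 each). That difference of -0.44, which does not depend on scaling, was larger than the spread between libraries (two-sided permutation test, p = 0.00028; adjusted over the same 2 ratios, 0.00056), and 5 MCD libraries lay below every control library. The catalytic subunit was therefore lower relative to its modifier subunit, in a test that was not planned and that uses the same values as the calls above.

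The thiol reductases divided as well. Gsr (ENSMUSG00000031584; chromosome 8, 33652523 to 33698163, plus strand) ran from 30.7 to 49.3 CPM in control livers (median 37.4) and from 27.7 to 51.5 CPM in MCD livers (median 38.5). The groups lay over each other, and the log2 fold change was -0.01 (95% confidence interval -0.20 to 0.18, edgeR FDR 0.947). The sign of so small a value turned with the scaling, and with total counts alone it was 0.34 (FDR 0.00856). Txnrd1 (ENSMUSG00000020250; chromosome 10, 82833951 to 82897712, plus strand) ran from 72.0 to 138 CPM in control (median 114) and from 95.7 to 135 CPM in MCD (median 106). Its log2 fold change of -0.10 (95% confidence interval -0.27 to 0.08, edgeR FDR 0.328) was not called, and turned to 0.05 with upper-quartile factors and 0.25 with total counts alone. The low end of its control range was again control replicate 12, the next control library being at 103 CPM. Srxn1 (ENSMUSG00000032802; chromosome 2, 152105516 to 152111376, plus strand), which repairs overoxidised peroxiredoxins, was higher in MCD livers. It ran from 26.4 to 62.5 CPM in control (median 39.2) and from 46.7 to 88.9 CPM in MCD (median 61.9), so that all 12 MCD libraries lay above the control median and 6 above every control library. The log2 fold change was 0.64 (SE 0.13, 95% confidence interval 0.37 to 0.91, edgeR FDR 0.000147).

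Nqo1, the gene most often read as a sign of NRF2 activity, was also higher. Nqo1 (ENSMUSG00000003849; chromosome 8, 107388225 to 107403206, minus strand) ran from 4.23 to 12.4 CPM in control livers (median 6.88) and from 8.98 to 16.4 CPM in MCD livers (median 12.9). All 12 MCD libraries lay above the control median and 8 above every control library, the log2 fold change being 0.68 (SE 0.15, 95% confidence interval 0.38 to 0.98, edgeR FDR 0.000241). Hmox1 (ENSMUSG00000005413; chromosome 8, 75093621 to 75100589, plus strand) ran from 14.2 to 40.2 CPM in control (median 26.4) and from 52.2 to 96.3 CPM in MCD (median 76.9). The groups did not overlap, and the log2 fold change was 1.39 (SE 0.14, 95% confidence interval 1.11 to 1.67, edgeR FDR 2.73e-09). On the linear scale the mean of Hmox1 was 2.62 times, that of Nqo1 1.61 times and that of Srxn1 1.56 times the control mean.

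**Figure D2:**
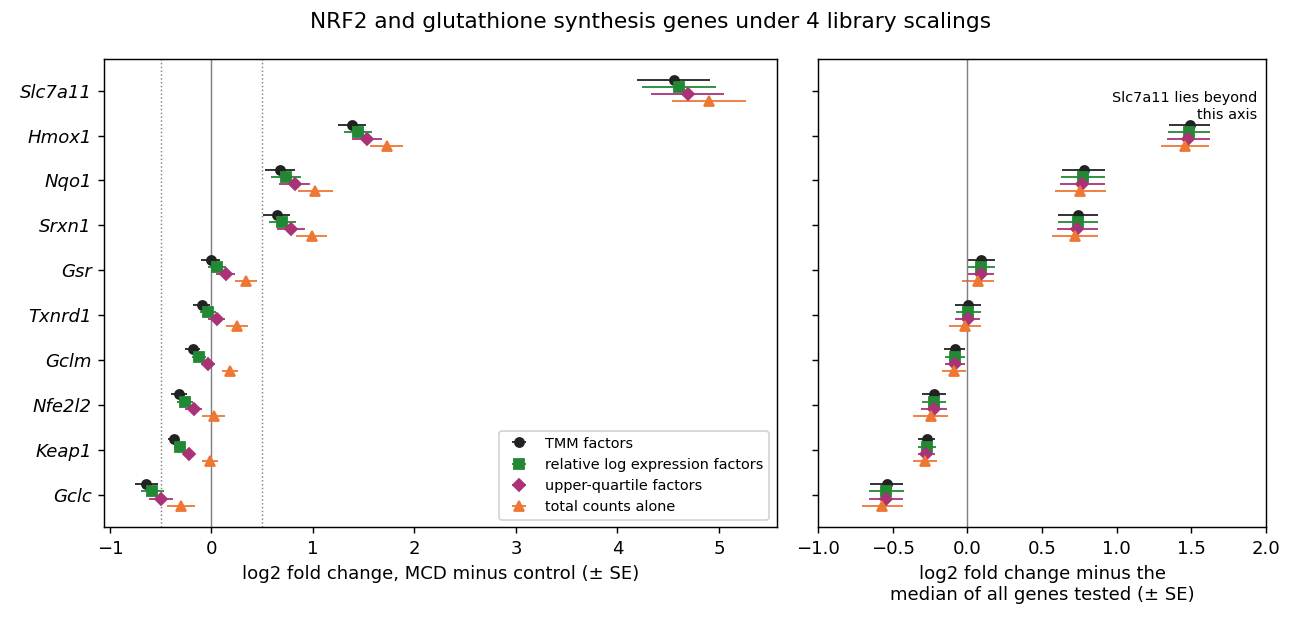
Log2 fold change (MCD minus control, ± SE) of the 10 genes with TMM, relative log expression and upper-quartile factors and with total counts alone, and, on the right, the same values minus the median over all genes tested; dotted lines mark the fold limit. Slc7a11, Hmox1, Nqo1 and Srxn1 stay above the limit under each scaling; Gclc is beyond it under the first 2, at -0.50 and -0.30 under the others, and at -0.54 to -0.57 relative to the median.

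Scaling by total counts alone moved the median of all genes up by 0.37 and upper-quartile factors moved it by 0.15. Taken relative to the median of each scaling, Gclc lay from -0.54 to -0.57 and Keap1 from -0.27 to -0.28. Nfe2l2 lay from -0.22 to -0.25 by the same reckoning, and Hmox1 from 1.46 to 1.49. A change of scaling moves all genes nearly alike, so the order of the genes cannot bear on which scaling to prefer.

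Per kilobase of exon (TMM-scaled CPM divided by the exon length in GENCODE release 21), Gclc had the highest mean level in control livers, at 50.3 ± 11.6 CPM per kb (SD, n = 12). Gclm followed at 24.2 ± 3.13 and Nfe2l2 at 20.3 ± 3.17 CPM per kb. The levels of Txnrd1 (16.3 ± 2.65), Hmox1 (16.0 ± 4.20), Srxn1 (14.7 ± 3.94), Gsr (14.5 ± 2.16) and Keap1 (14.3 ± 0.858) differed by less than their spread. Nqo1 stood lower at 5.10 ± 1.66 and Slc7a11 lowest. In MCD livers the first place passed to Hmox1, at 42.0 ± 8.58 CPM per kb, with Gclc at 32.3 ± 5.16, and the means of these 2 were about 1 SD apart. Srxn1 (23.0 ± 4.93) and Gclm (21.3 ± 1.66) came next and were within their spread of each other. Nfe2l2 (16.2 ± 1.42), Txnrd1 (15.3 ± 1.45) and Gsr (14.4 ± 2.35) were likewise neighbours that did not differ beyond their spread. Keap1 followed at 11.1 ± 1.01, Nqo1 at 8.19 ± 1.37 and Slc7a11 at 0.187 ± 0.055 CPM per kb.

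Whole liver holds several cell types, and in bulk RNA fewer cells of a type and less RNA per cell cannot be told apart. Of 8 markers of monocyte-derived macrophages 7 were higher in MCD livers, under each of the 4 scalings. Of these 7, Trem2, Gpnmb and Itgax did not reach the minimum of the filter in every control library and passed with the help of the MCD libraries, and without them 4 of 5 were higher. The summed level of all 8 ran from 123 to 447 CPM in control and from 1920 to 4303 CPM in MCD. Of 8 markers of resident macrophages 3 were higher and 4 lower (1 lower with total counts alone), their sums running from 195 to 573 and from 324 to 543 CPM. No marker of either list had a median of 0 counts in either diet. The mean log2 CPM of all 16 ran from 3.30 to 4.83 in control and was between 5.60 and 5.91 in MCD, so this score moved with diet, as did Hmox1, Slc7a11, Nqo1 and Srxn1. Summed hepatocyte markers ran from 75628 to 179271 CPM in control and from 57412 to 84197 CPM in MCD, and Gclc moved in their direction. Of these 8 markers 4 were lower (2 with upper-quartile factors and 0 with total counts alone). Of 6 markers of pericentral hepatocytes 1 was lower, with overlapping sums from 4865 to 12807 CPM in control and from 6199 to 9263 CPM in MCD. Of 6 cholangiocyte markers 5 were higher (3 of 4 without Cftr and Krt7, which passed the filter with the help of the MCD libraries), with sums from 23.0 to 43.7 CPM in control and from 71.4 to 136 CPM in MCD. Of 8 stellate cell and fibroblast markers 7 were higher and 1 lower, with sums from 152 to 431 CPM in control and from 621 to 1079 CPM in MCD. Of 6 endothelial markers 4 were lower (3 with relative log expression factors, 2 with upper-quartile factors and 1 with total counts alone), with sums from 178 to 260 CPM in control and from 111 to 163 CPM in MCD, and so moved in the direction of Gclc. Markers of lymphocytes (4 of 7), neutrophils (3 of 3 tested) and proliferation (5 of 5) were also called higher, but 6, 2 and 1 of the genes tested in these lists did not reach the minimum of the filter in every control library. Without them the counts were 0 of 1, 1 of 1 and 4 of 4, so the lymphocyte and neutrophil lists are a description only. More genes were detected in MCD libraries (18880 to 19830) than in control libraries (17469 to 18799), with no overlap. The share of counts on mitochondrial genes ran from 5.34% to 11.5% (median 8.95%) in control and from 5.49% to 7.79% (median 7.0%) in MCD libraries. The part of these cells and of the library measures in the differences between the diets was not tested.

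Within each diet the 10 genes were set against the macrophage score across 12 libraries, which made 20 relations. In control livers Hmox1 followed the score, with Pearson's r of 0.793 (two-sided permutation test, p = 0.00126; adjusted, 0.0252) and Spearman's rho of 0.853 (p = 0.00081; adjusted, 0.0162). When the 2 libraries with the most extreme scores were left out, r was 0.890 (permutation p adjusted, 0.00760). In MCD livers its r of 0.640 did not pass the correction (permutation p = 0.0296; adjusted, 0.110), and rho was 0.545 (permutation p adjusted, 0.283). None of the other 18 relations passed it, although with a sex-linked score (log2 CPM of Xist minus the mean of 4 Y-linked genes) removed by regression that of Srxn1 in control livers did (r = 0.841 in place of 0.427, adjusted permutation p = 0.0228). The values of Nqo1 (0.665) and Gclm (-0.659) in control livers and of Srxn1 (0.640) and Slc7a11 (0.619) in MCD livers had adjusted permutation p-values of 0.110. Whether the relation of Hmox1 differed between the diets was not tested.

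**Figure D3:**
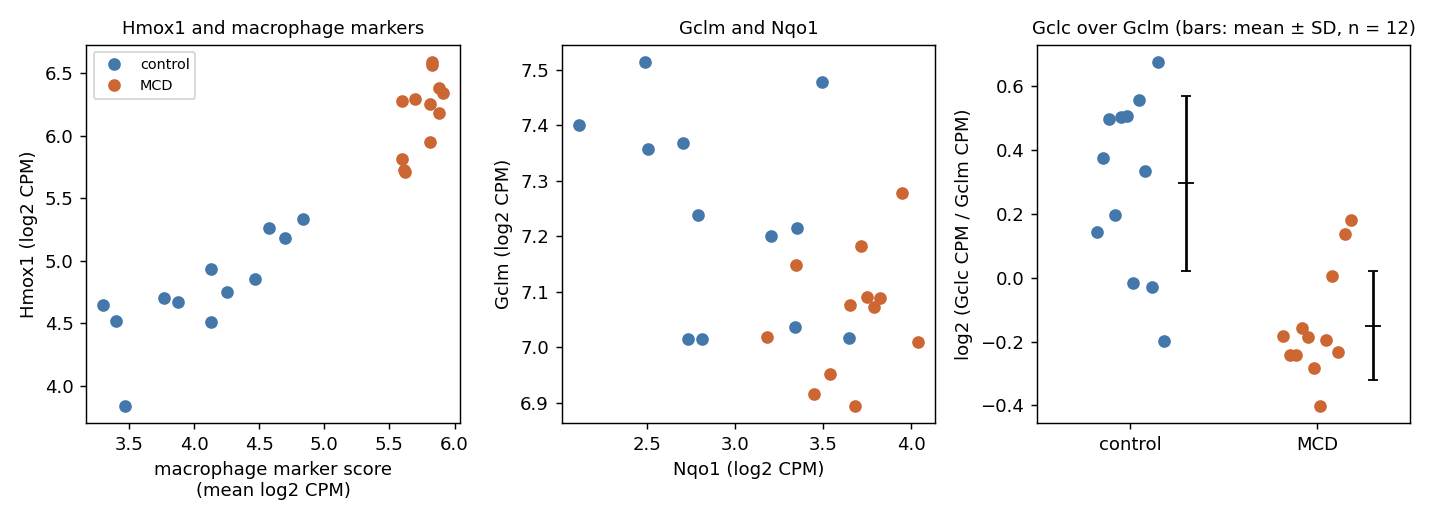
Left, Hmox1 against the macrophage marker score (both log2 CPM); middle, Gclm against Nqo1 (both log2 CPM); right, the log2 ratio of Gclc to Gclm; each point is 1 of 12 control (blue) or 12 MCD (orange) libraries, and bars are mean and SD. Hmox1 climbs with the score in control livers (r = 0.793), the relation of Gclm with Nqo1 passed the correction in neither diet, and the ratio is lower in MCD (-0.15 against 0.29).

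To see whether the genes varied with Nqo1 from liver to liver, Nqo1 was set against each of the other 9 genes within each diet. None of these 18 relations passed the correction in a permutation test, nor did any with the sex-linked score removed, although that of Srxn1 in MCD livers then moved from r = 0.226 to 0.770 (permutation p adjusted, 0.0571). By unadjusted permutation p under 0.05, 0 passed by Pearson's r and 1 by Spearman's rho. Values of r ran from -0.41 to 0.48 in control livers and from -0.15 to 0.44 in MCD livers. At 12 libraries per diet only strong relations could pass, so weaker ones were not detectable here. Over all 45 pairs of the 10 genes, r had a median of 0.17 in control livers (from -0.55 to 0.83, 14 pairs negative) and 0.28 in MCD livers (from -0.70 to 0.83, 13 pairs negative). It exceeded 0.5 in 11 pairs in control livers and in 14 in MCD livers. Txnrd1 with Gsr was among them in both, at 0.83 and 0.82. These values share libraries and scaling and are given as a description.

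Over the 24 libraries, after removing the mean of each diet, the 3 genes whose pattern lay closest to each of the 10 were listed. They came from all 14109 genes tested, of which the pathway is a small part. Neighbours from outside the pathway therefore say little about whether the 10 genes vary together. This too is a description, over libraries that share their scaling. Nqo1 lay closest to Mgst3, a microsomal glutathione S-transferase (r = 0.843), then to Pigp (0.786) and Endod1 (0.773). Hmox1 lay closest to Ms4a6d (0.847), B430306N03Rik (0.846) and Ifi204 (0.835). For Txnrd1 the nearest were Ikbkg (0.940), Map2k1 (0.924) and Zyg11b (0.914), and for Nfe2l2 Ttc3 (0.899), Cc2d2a (0.869) and 4930402H24Rik (0.851). Srxn1 had Tpd52 (0.860), Gnb1 (0.839) and Kctd17 (0.818) and Slc7a11 had S100a11 (0.809), Ubd (0.807) and Syt12 (0.806). The nearest of Gclc were Gng12 (0.828), Vcl (0.812) and Wdr7 (0.809), those of Gclm Necab1 (0.785), Cyp4v3 (0.775) and Dnajc28 (0.774), those of Gsr Tex2 (0.867), Tdrd7 (0.837) and Arel1 (0.824), and those of Keap1 Pml (0.775), Tapbp (0.756) and AI661453 (0.748). Among the 10 themselves, the closest were Gsr and Txnrd1 (0.767), followed by Srxn1 and Gsr (0.689), Gclc and Txnrd1 (0.687) and Srxn1 and Slc7a11 (0.675). By closeness among all genes, Txnrd1 ranked 11 for Gsr, Srxn1 51 for Slc7a11 and 54 for Gsr, and Txnrd1 62 for Gclc. The values of Slc7a11 rest in part on control libraries with 0 to 7 counts. Control replicate 12 was the lowest control library for both Gsr and Txnrd1, and its part in their r was not tested.

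The wider pathway was covered by 7 lists with 75 genes, of which 74 were tested (Ggt1 was too low). On the TMM scale 17 were higher, 13 lower and 44 not called, with a median log2 fold change of 0.12. The 30 called genes are 40.5% of those tested, near the 38.3% over all genes (19.2% higher and 19.1% lower), and the lists below are to be read against the same shares. Of the 74 genes 5 (Gpx2, Trim16, Dpep1, Cbr3 and Nfe2) did not reach the minimum of the filter in all 12 control libraries and passed with the help of the MCD libraries. Without these 5, 13 of 69 genes were higher and 13 lower, with a median of 0.04. With total counts alone 36 of the 74 were higher and 3 lower, so the balance between the directions belongs to the scale, and single genes below are given with the scaling at which their call was lost.

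**Figure D4:**
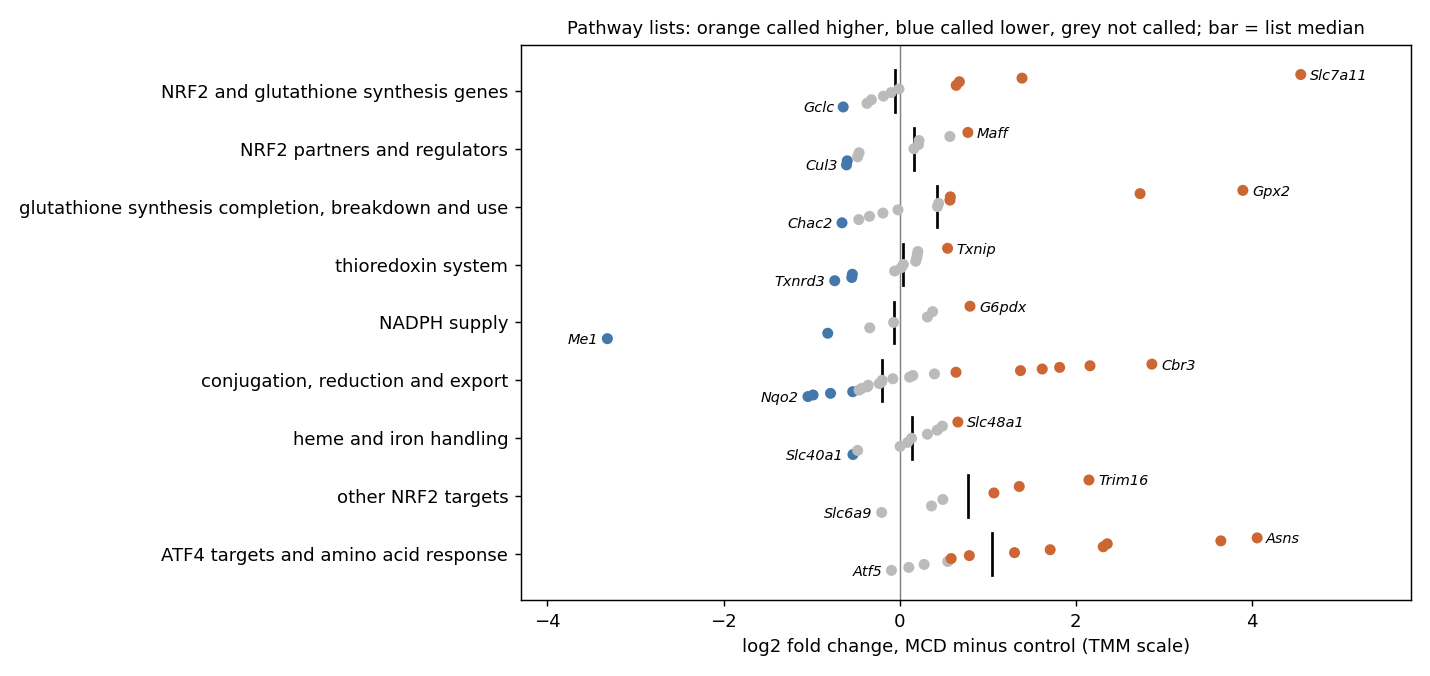
Log2 fold change (MCD minus control, TMM scale) of each tested gene of the 10 NRF2 and glutathione synthesis genes, the 7 wider pathway lists and a list of ATF4 targets; orange points were called higher, blue lower and grey not called, black bars are list medians, and the lowest and highest gene of each list are named. Calls run in both directions in all lists but the last 2, where 3 of 6 and 8 of 12 genes were higher and 0 lower on this scale (2 of 5 and 4 of 8 without genes that passed the filter with the help of the MCD libraries).

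Among 9 partners and regulators of NRF2, Maff, a small MAF partner, was higher (0.77, edgeR FDR 9.79e-06). Bach1, a repressor that competes for the same elements, was lower on the TMM scale (-0.60, edgeR FDR 0.000289) but not with upper-quartile factors or total counts alone. The same was true of Cul3, the cullin that serves KEAP1, which fell from 59.8 ± 4.65 to 39.3 ± 3.54 CPM (SD, n = 12 each) with no overlap between the diets (-0.60, edgeR FDR 2.73e-09). Another partner, Mafg, was at -0.46 (edgeR FDR 0.000537), inside the fold limit. Sqstm1, the autophagy receptor that can bind KEAP1, was at 0.21 (edgeR FDR 0.0197) and not called, though it was higher with total counts alone (0.58).

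Glutathione completion, breakdown and use gave 4 genes higher and 1 lower of 11 tested. Gss, which adds glycine to complete glutathione, was higher (0.57, edgeR FDR 6.55e-05), in contrast to Gclc, the enzyme of the step before. Gpx2, a glutathione peroxidase of epithelia, had the largest value (3.90, SE 0.55, edgeR FDR 8.94e-07) at low levels of 0.106 ± 0.213 and 1.55 ± 1.26 CPM (SD, n = 12 each), with overlapping groups. No control library reached the minimum of the filter for Gpx2, which passed it only through the MCD libraries and so had to differ, and its values are a description. Dpep1, a dipeptidase that takes part in glutathione breakdown, rose from 1.05 ± 0.823 to 6.93 ± 2.04 CPM (2.73, edgeR FDR 5.57e-09). Ggt5 (0.58) was higher and close to the limit (edgeR FDR 0.00967). Chac2, which cleaves glutathione in the cytosol, was lower (-0.65, edgeR FDR 0.000141), a call lost with upper-quartile factors and total counts alone, while its relative Chac1, an ATF4 target, was at 0.44 (edgeR FDR 0.122) and was called higher with total counts alone (0.86, FDR 0.00182). Dpep1 reached that minimum in 9 of 12 control libraries, and without it and Gpx2 the list held 2 higher and 1 lower of 9. Exons of Gss overlap 3 genes on the opposite strand.

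In the thioredoxin system, 1 gene of 11 was higher and 3 were lower. Txnip, which binds and inhibits thioredoxin, was higher (0.54, edgeR FDR 0.000588). Txnrd3 was lower (-0.74, edgeR FDR 3.99e-08), but not with total counts alone. Txnrd2, the mitochondrial reductase (-0.54), and the peroxiredoxin Prdx6 (-0.54) were called lower only on the TMM scale among the 4 scalings. With relative log expression factors Txnrd2 (-0.49, edgeR FDR 3.27e-05) and Prdx6 (-0.48, edgeR FDR 0.000108) were just inside the fold limit. Thioredoxin itself, Txn1 (0.19, edgeR FDR 0.199), and Prdx1 (0.21, edgeR FDR 0.119) were not called, and both were higher with total counts alone.

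Of 7 genes that supply NADPH, on which these reductases depend, G6pdx, the entry to the pentose phosphate pathway, was higher (0.80, edgeR FDR 0.00159), with 418 exonic bases shared with Ikbkg on the other strand. Me1, malic enzyme, which is also tied to lipid synthesis, fell from 376 ± 157 to 37.7 ± 5.87 CPM (SD, n = 12 each), or -3.32 on the log2 scale (SE 0.19, edgeR FDR 2.94e-13), with no overlap between the diets and the lowest value of the 74 genes. Idh1 was lower (-0.82, edgeR FDR 1.1e-07) save with total counts alone.

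The list for conjugation, reduction and export gave 6 genes higher and 4 lower of 21. The carbonyl reductase Cbr3 (2.86, edgeR FDR 4.34e-08) and the glutathione S-transferases Gsta2 (2.16, edgeR FDR 3.01e-07) and Gsta1 (1.82, edgeR FDR 0.00185) had the largest rises. Cbr3 reached the minimum of the filter in 8 of 12 control libraries, and without it 5 of 20 genes were higher. Gsta1 and Gsta2 are near-identical copies, so reads may have been split between them. Gstm3 (1.37, edgeR FDR 0.000965) and Gstm2 (0.64, edgeR FDR 0.00237) of the same enzyme family were higher as well, under all 4 scalings. Gsta3, another of the alpha class, fell from 1117 ± 505 to 565 ± 96.2 CPM (SD, n = 12 each; -0.98, edgeR FDR 6.36e-05), and Gstm1 (-0.08, edgeR FDR 0.734) and Gstp1 (0.15, edgeR FDR 0.735) were not called. Nqo2, the relative of Nqo1, was lower (-1.04, edgeR FDR 1.36e-10) where Nqo1 was higher, although 762 of its exonic bases overlap Serpinb6a on the other strand. The bile canalicular exporter Abcc2 was lower (-0.78, edgeR FDR 1.33e-06), except with total counts alone.

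Around Hmox1, of 9 genes of heme and iron handling 1 was higher and 1 lower. The heme transporter Slc48a1 was higher (0.66, edgeR FDR 7.33e-06), and the iron exporter Slc40a1 was called lower (-0.53, edgeR FDR 0.000505) on the TMM scale alone. With relative log expression factors Slc40a1 was at -0.47 (edgeR FDR 0.00171), just inside the fold limit. Of 6 other NRF2 targets 3 were higher and 0 lower: Trim16 (2.15, edgeR FDR 8.41e-06), whose exons overlap Fbxw10 on its own strand, Gdf15 (1.36, edgeR FDR 0.000168) and Osgin1 (1.07, edgeR FDR 0.000474). Trim16 stood at 0.274 ± 0.256 CPM in control livers (SD, n = 12), where 2 of 12 libraries reached the minimum of the filter, so it passed through the MCD libraries and had to differ. Without it 2 of 5 genes were higher. Gdf15 is known to answer to ATF4 as well.

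Because Slc7a11 is a target of both factors, 12 genes of the ATF4 and amino acid response were described as a list of their own. Of these 8 were higher and 0 lower, with a median log2 fold change of 1.05. Without 4 genes that passed the filter with the help of the MCD libraries, 4 of 8 were higher and the median was 0.57. Chosen in the same way, 2 of the 5 other NRF2 targets were higher, with a median of 0.49. All 69 pathway genes, regulators and enzymes of other steps among them, had a median of 0.04. The lists were not tested against each other. Asns, asparagine synthetase, rose from 1.15 ± 0.811 to 19.4 ± 19.2 CPM (SD, n = 12 each; 4.06, SE 0.68, edgeR FDR 1.05e-05), with a spread in MCD livers close to its mean. Atf3 (3.65, edgeR FDR 1.93e-12) and Phgdh, the first enzyme of serine synthesis (2.36, edgeR FDR 1.99e-08), did not overlap between the diets. Phgdh, at 0.508 ± 0.294 CPM in control livers (SD, n = 12), reached the minimum of the filter in 3 of 12 control libraries, passed it through the MCD libraries and had to differ. Asns (7 of 12), Psat1 (9 of 12) and Slc7a1 (10 of 12) did not reach it in every control library either. The 4 genes of the list that were not called included Atf4 itself (0.28, edgeR FDR 0.00168), inside the fold limit on the TMM scale and higher with total counts alone (0.65). The others were Cebpb (0.55, edgeR FDR 0.0165), Slc7a5 (0.10, edgeR FDR 0.594) and Atf5 (-0.09, edgeR FDR 0.549). Of the 12 genes, 9 were called higher with upper-quartile factors and 10 with total counts alone. Chac1, which is also driven by ATF4, is given above with glutathione breakdown.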

How the data were processed

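The table as deposited holds unnormalised counts of reads for Ensembl genes in 24 libraries, all of which were used (0 columns unused). The submitters' processing notes name bcl2fastq, STAR 2.7.3a and mm10. The study's methods describe a stranded kit without naming a species and, against an Ensembl human reference, an exon quantification pipeline with the same STAR version and PISCES. Which counting program, annotation and strand setting made the mouse table is not given in the sources used here, and 4460 identifiers of the table are not in GENCODE mouse release 21, from which symbols (51745 rows), coordinates and exon lengths were taken. Libraries were grouped by the diet in the labels.

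In R 4.3.3, edgeR 4.0.16 (filterByExpr by diet, TMM, glmQLFit and glmQLFTest, no covariate) compared the diets over 14109 genes with Benjamini-Hochberg adjustment. Calls needed an FDR of 0.01 and an absolute log2 fold change above 0.5, limits the study applied to its own data. SE is the absolute log2 fold change over the square root of F. CPM is TMM-scaled, and log2 CPM has a prior count of 2. The biological coefficient of variation was 26.8%. Permutation tests were two-sided with 100000 resamples (Python 3.11.15, numpy 2.4.6, scipy 1.17.1), and figures used matplotlib 3.10.9. The fits were tested on simulated data.

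The members and lists were chosen with earlier results of these data known. The tests of the ratios within a library were not among those planned. Gstm2, Gstm3, the 4 uncalled genes of the ATF4 list and genes named for how they passed the filter (Nfe2, Psat1, Slc7a1 and the named cell markers) were named after their values were seen. Named by rule beyond the 10 genes are up to 3 genes called higher and 3 lower of each pathway list by size of change, 12 genes chosen by name (Gss, Sqstm1, Mafg, Bach1, Me1, Gsta1, Gstm1, Gstp1, Chac1, Txn1, Prdx1, Gpx2), and the 3 genes most alike to each member. Ggt5 is in the first group. Gsta3, Nqo2 and Abcc2 are the 3 largest falls of their list. Results were recomputed with other library factors (relative log expression, upper quartile, or none), other filters (none, or a minimum of 10 counts in each library), other tests (DESeq2 1.42.0, and voom in limma 3.58.1), a replicate block, a sex-linked score as covariate, other call limits and leaving out each library.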

Additional observations from a re-analysis of the deposited data

How the results depend on the processing

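Slc7a11, Hmox1, Nqo1 and Srxn1 were called higher under each alternative that gave them a value, except that a log2 limit of 1 left Nqo1 (0.68) and Srxn1 (0.64) uncalled. Over 11 alternatives Hmox1 ran from 1.38 to 1.73, Nqo1 from 0.68 to 1.02 and Srxn1 from 0.64 to 0.99. Slc7a11 ran from 4.55 to 4.90 over 10, having no value under a minimum of 10 counts per library. It passed the main filter only through the MCD libraries and so had to differ. Its repeated calls, here and in the fits below, are a description.

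Upper-quartile factors (median of all genes up by 0.15) gave 0 lower members, 6 lower pathway genes and 1710 lower genes in all, with Gclc at -0.50, Txnrd1 at 0.053 and Gsr at 0.14. Total counts alone (median up by 0.37) gave 0 lower members, 36 higher and 3 lower pathway genes and 4539 higher and 848 lower genes in all, with Gclc at -0.30, Nfe2l2 at 0.023, Gclm at 0.18, Txnrd1 at 0.25 and Gsr at 0.34. Gsr was also above 0 with relative log expression factors (0.053), without the low-count filter (0.031), with a minimum of 10 counts per library (0.075, with 1801 higher genes in all of 11717 tested) and DESeq2 (0.054). With the limits relaxed to an FDR of 0.05 and no fold limit there were 4 lower members, adding Nfe2l2 (-0.32), Keap1 (-0.37) and Gclm (-0.18), 26 higher and 23 lower pathway genes and 5221 lower genes in all. With a log2 limit of 1 there were 2 higher and 0 lower members, Gclc (-0.64) no longer counting, 10 higher and 2 lower pathway genes and 686 lower genes in all. The median of all genes itself moved up by 0.0598 with relative log expression factors, 0.0406 without the filter, 0.0334 with the minimum of 10 counts and 0.0618 with DESeq2, and what else moved Gsr was not tested.

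Leaving out each library in turn gave 4 higher (Slc7a11, which had to differ, among them) and 1 lower members in all 24 fits, 16 to 23 higher and 9 to 14 lower pathway genes and 2701 to 3052 higher and 2228 to 2812 lower genes in all, with Gsr from -0.030 to 0.075. Replicate numbers are shared by the diets. The deviations of libraries with the same number correlated above 0.1 in 8 of 12 pairs (r from -0.28 to 0.35). Of 24 libraries, 3 correlated best with their own number. These values do not decide whether libraries were paired, no label gives a pairing, and the main fit did not use one. A replicate block gave Gclc -0.62, Hmox1 1.41, Nqo1 0.72, Slc7a11 4.64 and Srxn1 0.66, the same 4 higher and 1 lower members and 2781 higher and 2430 lower genes in all.

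With the sex-linked score removed by regression, chosen after seeing the data, 2 relations with the macrophage score passed in place of 1, Srxn1 in control livers (r = 0.841, adjusted permutation p = 0.0228) joining Hmox1 (r = 0.739, adjusted permutation p = 0.0342). Of the 18 relations with Nqo1, 0 passed in this way as before, but that of Srxn1 in MCD livers moved from r = 0.226 to 0.770 (permutation p = 0.00317, adjusted 0.0571). The planned relations with that score itself were not computed, since its values fell into separate clusters in both diets. Slc7a11 in control livers is limited by depth, at 0 to 7 counts.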
